A study of Mus musculus with 10 samples.

Results

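Pax5, Bach2, Cd72 and Lyn are 4 B cell genes whose rows were read here in the RNA-seq count tables of inflamed mouse colon, 4 of 55416 rows in each of 2 tables. They were chosen by name, with earlier results of these data known, among the B cell genes that lie in a stretch of chromosome 4 where the counts can be tied to gene names. Colons came from mice that drank 2% dextran sulfate sodium (DSS), an agent that injures the colonic epithelium and causes colitis, for 7 days. The labels give 5 libraries without Vista (KO), a gene encoding an inhibitory immune checkpoint protein, and 5 wild-type (WT) libraries. The first table holds KO 1, KO 2 and KO 3 with WT 1, WT 2 and WT 3, and the second holds KO 4 and KO 5 with WT 4 and WT 5. These numbers were given here, in order of deposit within each genotype. The genotype is labelled a VISTA knockdown for the KO libraries of the first table and Vista-/- for those of the second. No mouse that did not receive DSS was analysed here, and the labels used here give neither strain, age, sex nor the way the gene was inactivated.

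B cells make antibodies, and in the colon they sit mostly in scattered lymphoid follicles, while their plasma cell descendants lie spread through the lamina propria. Pax5 encodes the transcription factor that commits cells to the B lineage and holds them there until it is switched off in plasma cells. Bach2 encodes a transcriptional repressor that delays the step to the plasma cell and also acts in T cells. Cd72 encodes a surface coreceptor that dampens signalling by the B cell antigen receptor. Lyn encodes a Src-family kinase that starts signals from that receptor and also feeds inhibitory receptors such as CD72, and it is made in myeloid cells as well.

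Column totals ran between 3691322 counts in WT 5 and 4071238 counts in KO 2. On the first principal component of the log2 CPM (counts scaled to one common column total), which held 34.8% of the variance, WT 4 and WT 5 stood apart at 45.4 and 50.9, while the other 8 libraries lay between -26.9 and 6.30. The row of the targeted gene, Vsir, had 27 to 97 counts in KO libraries and 0 to 82 counts in WT libraries. That row lies on chromosome 10, outside the stretches where counts follow gene names, so it does not check the genotype labels. Of 28 B cell symbols listed for the check of cell type, 27 had a row and only the 4 described here lay where names could be used, so the others were not used here.

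All 4 genes lie on chromosome 4 of mm10, between bases 1 and 59904737, where each of 17 genes that nearly every cell uses had at least 2077 counts over the 10 libraries. Of 460 such genes elsewhere, 22.0% reached 500 counts. The stretch was drawn from the genes that passed, so their passing is not a check of it. Lyn (ENSMUSG00000042228) spans bases 3678115 to 3813122 on the plus strand. Bach2 (ENSMUSG00000040270) spans bases 32238804 to 32586108 on the plus strand. Cd72 (ENSMUSG00000028459) spans bases 43446462 to 43454628 on the minus strand. Pax5 (ENSMUSG00000014030) spans bases 44524757 to 44710487 on the minus strand. Each value is a sum over the exons of its gene, so isoforms are not separated.

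The bases around the start sites of Pax5, Bach2 and Cd72 are shown, from 250 before to 50 after the RefSeq start (build GRCm38.p6, which has the coordinates of mm10). No such sequence was available here for Lyn. Whether these bases bear on the levels of the genes was not tested. Capitals mark the matches to 7 short motifs searched on both strands. The windows are chr4:44710645-44710944 on the minus strand for Pax5, chr4:32417185-32417484 on the plus strand for Bach2 and chr4:43454577-43454876 on the minus strand for Cd72.
Pax5: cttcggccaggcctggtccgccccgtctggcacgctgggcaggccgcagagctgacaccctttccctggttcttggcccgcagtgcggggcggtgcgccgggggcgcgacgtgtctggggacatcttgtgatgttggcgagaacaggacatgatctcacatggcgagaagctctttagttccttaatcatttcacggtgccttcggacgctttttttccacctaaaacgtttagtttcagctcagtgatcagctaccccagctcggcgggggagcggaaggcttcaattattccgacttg
Bach2: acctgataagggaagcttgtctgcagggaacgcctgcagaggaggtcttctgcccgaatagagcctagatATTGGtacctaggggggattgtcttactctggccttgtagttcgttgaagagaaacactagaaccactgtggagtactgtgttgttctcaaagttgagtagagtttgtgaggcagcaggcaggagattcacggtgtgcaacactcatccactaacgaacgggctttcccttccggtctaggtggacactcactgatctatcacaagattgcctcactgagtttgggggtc
Cd72: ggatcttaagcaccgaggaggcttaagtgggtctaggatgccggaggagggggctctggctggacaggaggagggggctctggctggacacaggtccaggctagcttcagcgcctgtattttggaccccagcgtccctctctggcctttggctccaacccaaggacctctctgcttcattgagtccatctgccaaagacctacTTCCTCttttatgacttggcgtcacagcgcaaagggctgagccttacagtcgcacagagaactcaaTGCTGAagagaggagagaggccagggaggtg
The Bach2 window lies around a start inside the span given above. The Pax5 window lies wholly outside the Pax5 span, upstream of it. The motifs were GAGGAA (the core bound by PU.1 and other Ets factors), TGCAAAT (part of the octamer), TGCTGA (the half-site bound by Bach and Maf factors), TGANTCA (the AP-1 site), CAGCTG (an E-box), CCAAT (the NF-Y site) and TATAAA (the TATA box). The Cd72 window held GAGGAA read on the opposite strand at bases 204 to 209, counted from the first printed base, and TGCTGA at bases 270 to 275. The Bach2 window held CCAAT on the opposite strand at bases 71 to 75, and none of the 7 letter strings occurred in the Pax5 window. Among 32851 promoters of the same length, 28.3% held GAGGAA, 19.5% TGCTGA and 37.4% CCAAT, so each match is a common one. TGCAAAT occurred in 4.02%, TGANTCA in 7.81%, CAGCTG in 16.3% and TATAAA in 13.6% of them. The Pax5 window held 23 CpG dinucleotides, against 7 in the Bach2 window, 7 in the Cd72 window and a median of 7 over all promoters.

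Pax5, the factor that sets B cell identity, had 55.4, 61.7 and 68.7 CPM in KO 1, KO 2 and KO 3, against 61.2, 134 and 148 CPM in WT 1, WT 2 and WT 3. In the second table it had 130.1 and 80.8 CPM in KO 4 and KO 5, against 10.7 and 5.15 CPM in WT 4 and WT 5. The WT libraries thus held both the highest and the lowest Pax5 levels, and the genotypes overlapped in the first table but not in the second. WT 5 had only 19 Pax5 counts and WT 4 had 40, while every other library had at least 223.

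Bach2, the repressor that holds back plasma cell differentiation, had 16.1, 20.1 and 21.4 CPM in KO 1, KO 2 and KO 3, against 27.1, 36.8 and 37.3 CPM in WT 1, WT 2 and WT 3. Bach2 then had 33.8 and 26.0 CPM in KO 4 and KO 5 of the second table, against 4.57 and 7.31 CPM in WT 4 and WT 5. The genotypes did not overlap in either table, with KO below WT in the first and above WT in the second. How many of all rows show no such overlap was not counted, here or for the other genes of this report.

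Cd72, the inhibitory coreceptor, had 46.2, 56.7 and 61.7 CPM in KO 1, KO 2 and KO 3, against 53.3, 117 and 105.2 CPM in WT 1, WT 2 and WT 3. In the second table it had 88.1 and 54.3 CPM in KO 4 and KO 5, against 14.8 and 12.7 CPM in WT 4 and WT 5. As for Pax5, WT 1 fell among the KO libraries of its table, and WT 4 and WT 5 were the lowest of all 10. The end of Cd72 overlaps 1603 bases of Tesk1, a kinase gene on the opposite strand, and whether counting used strand is not given in the sources used here. Tesk1 stayed between 88.6 and 103 CPM in KO libraries and between 82.3 and 113 CPM in WT libraries, and it was highest in WT 5, where Cd72 was lowest.

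Lyn, the kinase, had 351.5, 334 and 394 CPM in KO 1, KO 2 and KO 3, against 258, 318 and 316 CPM in WT 1, WT 2 and WT 3. Its second-table levels were 465 and 253 CPM in KO 4 and KO 5, against 186 and 161 CPM in WT 4 and WT 5. KO libraries lay above WT libraries in both tables with no overlap within either, although KO 5 was below every WT library of the first table.

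**Figure D1:**
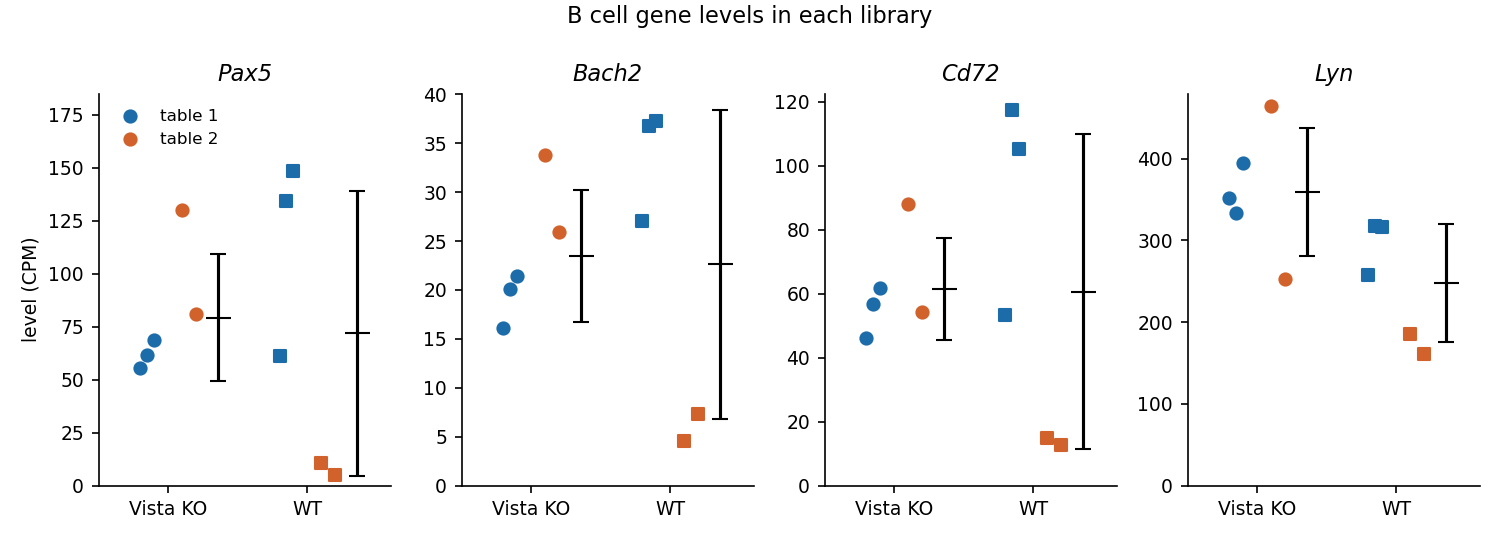
Level of each B cell gene (vertical axes, CPM of the column total) in every library, with KO left of WT, circles for KO, squares for WT, blue for the first table, orange for the second, and a line with bars for the mean ± SD of the 5 libraries of each genotype. Pax5, Bach2 and Cd72 are lowest in WT 4 and WT 5, and Lyn is at 161 CPM or more in every library.

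Over all 5 libraries of each genotype, Pax5 averaged 79.3 ± 29.9 CPM in KO and 71.9 ± 67.2 CPM in WT (SD, n = 5 each). Bach2 averaged 23.5 ± 6.75 CPM in KO and 22.6 ± 15.8 CPM in WT (SD, n = 5 each). The genotype means of both lay close together. Cd72 averaged 61.4 ± 15.95 CPM in KO and 60.7 ± 49.1 CPM in WT (SD, n = 5 each). Lyn averaged 359 ± 77.9 CPM in KO and 248 ± 72.3 CPM in WT (SD, n = 5 each). For Pax5, Bach2 and Cd72 the spread among WT libraries was wider than among KO libraries, and Lyn alone had a higher mean in KO by more than 1 SD.

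Levels were compared between genes per kilobase of exon. Lyn was the highest, at 74.5 CPM per kilobase over the 10 libraries (range 39.6 to 114). Cd72 followed at 17.8 CPM per kilobase (range 3.72 to 34.3), then Pax5 at 8.54 (range 0.581 to 16.8) and Bach2 at 2.32 (range 0.459 to 3.75). This order held in 9 of the 10 libraries, and in WT 5 Bach2 was above Pax5. The ranges of Cd72 and Pax5 overlapped across libraries, as did those of Pax5 and Bach2, whereas that of Lyn lay above the other 3. Over the 4 sets of libraries, Pax5, Bach2 and Cd72 were highest in the WT libraries of the first table, followed by the KO libraries of the second, the KO libraries of the first and the WT libraries of the second. The levels of the highest 2 sets overlapped for each of these 3 genes, and the 2 tables were counted separately. The mean Lyn levels of the KO libraries were alike in both tables, at 359 CPM in the second and 359.8 CPM in the first, above WT means of 174 CPM in the second and 297 CPM in the first.

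The design text describes 3 KO against 3 WT colons, the comparison held in the first table. There Bach2 was lower in KO, with a log2 fold change of -0.77 ± 0.17 (SE; KO over WT, 3 against 3 libraries; adjusted p = 0.0301 by edgeR's quasi-likelihood test with Benjamini-Hochberg adjustment over all rows). Cd72 had a log2 fold change of -0.70 ± 0.23 (SE; edgeR adjusted p = 0.0933), and Lyn one of 0.31 ± 0.10 (SE; edgeR adjusted p = 0.0878). Neither passed the threshold of 0.05. Pax5, whose change in this comparison was known from earlier results, had a log2 fold change of -0.85 ± 0.25 (SE), given as a description. Of Bach2, Cd72 and Lyn, 1 passed (Bach2), against 6.06% of all rows tested. By direction, 3.1% of rows passed as higher and 2.96% as lower, and among protein-coding rows of the chromosome 4 stretch 8.89% passed. The Bach2 call was lost without KO 1, KO 2, WT 2 or WT 3. With each of the 6 libraries left out in turn its log2 fold change stayed between -0.88 and -0.65, and its adjusted p reached up to 0.105. In bulk tissue, fewer cells of a type and less RNA per cell cannot be told apart.

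In the second table the signs of Pax5, Bach2 and Cd72 were the opposite. Cd72 was higher in KO 4 and KO 5 than in WT 4 and WT 5, with a log2 fold change of 2.37 ± 0.30 (SE; edgeR adjusted p = 0.0406). Bach2 had a log2 fold change of 2.33 ± 0.34 (SE; edgeR adjusted p = 0.0559) and Lyn one of 1.05 ± 0.30 (SE; edgeR adjusted p = 0.193), neither past the threshold. Pax5 had a log2 fold change of 3.73 ± 0.42 (SE), again as a description. Of Bach2, Cd72 and Lyn, 1 passed (Cd72), against 0.856% of all rows tested, 0.534% as higher and 0.322% as lower. On the chromosome 4 stretch 1.75% of protein-coding rows passed. With 2 libraries a side, leaving out any 1 of them ended the Cd72 call, at log2 fold changes of 1.99 to 2.67 and adjusted p of 0.119 to 0.244. With no filter on low counts the Cd72 call was lost as well (log2 fold change 2.36, adjusted p = 0.117), and 2 rows were called in all. DESeq2 instead called Bach2 (2.34, adjusted p = 8.48e-05), Cd72 (2.38, adjusted p = 1.74e-07) and Lyn (1.05, adjusted p = 0.0433) as higher. Both WT libraries here are those that stand apart on the first principal component, and their part in the result was not tested.

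**Figure D2:**
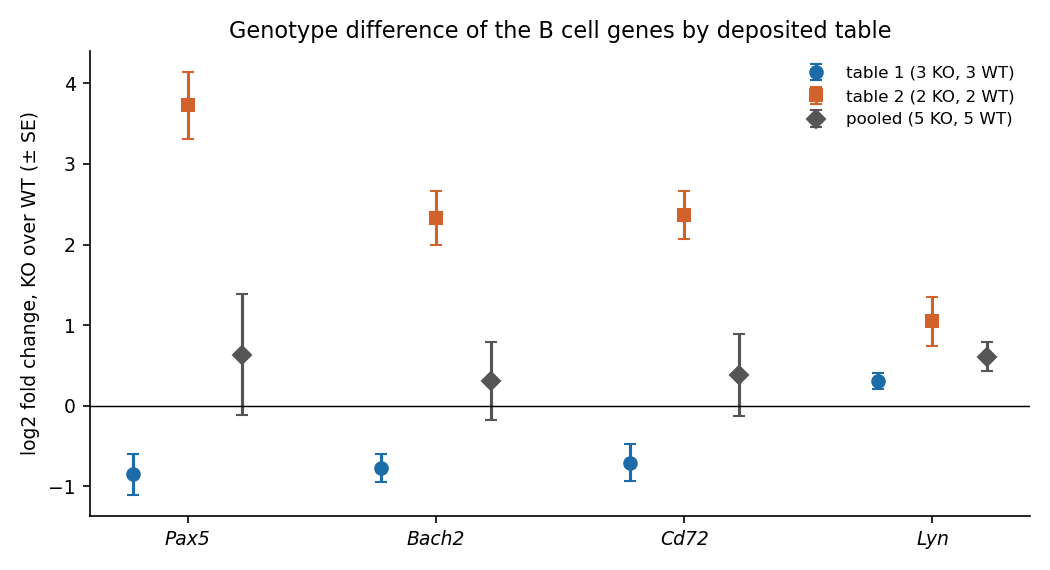
Log2 fold change of each B cell gene, KO over WT, by edgeR within each table and over all libraries, with standard errors as bars. Pax5, Bach2 and Cd72 lie below 0 in the first table and above 2 in the second, and Lyn lies above 0 in both.

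The difference between the 2 tables was tested directly, as the log2 fold change in the second minus that in the first. It was 3.10 ± 0.34 for Bach2 (SE; edgeR adjusted p = 0.00317) and 3.08 ± 0.44 for Cd72 (SE; edgeR adjusted p = 0.00567). For Lyn it was 0.74 ± 0.29 (SE; edgeR adjusted p = 0.261), which did not pass. The Pax5 difference was 4.58 ± 0.54 (SE), a description. Of Bach2, Cd72 and Lyn, 2 passed as higher, against 2.05% of all rows tested in either direction, 1.76% as higher and 0.298% as lower. Bach2 and Cd72 followed Pax5 across the same libraries (r = 0.944 and 0.984 over all 10). Their passing could thus in part be foreseen from the known Pax5 difference, and the share of all rows is no check of it. The same holds for the counts within each table. On the chromosome 4 stretch 2.65% of protein-coding rows passed. The Cd72 call was lost without WT 5, at a difference of 2.96 and an adjusted p of 0.0544, and Lyn was called without KO 5, at 1.08 and an adjusted p of 0.00634. Over 12 alternatives the adjusted p ran up to 0.0310 for Bach2, up to 0.0544 for Cd72 and between 0.00634 and 0.615 for Lyn.

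With all 10 libraries and the table as a covariate, none of Bach2, Cd72 and Lyn passed edgeR's adjusted threshold, against 5.63% of all rows tested, 2.7% as higher and 2.93% as lower. On the chromosome 4 stretch 8.41% of protein-coding rows passed. The log2 fold changes were 0.31 ± 0.48 for Bach2 (SE; edgeR adjusted p = 0.733), 0.39 ± 0.51 for Cd72 (SE; edgeR adjusted p = 0.682) and 0.61 ± 0.18 for Lyn (SE; edgeR adjusted p = 0.0717). Pax5 had 0.63 ± 0.75 (SE). At an unadjusted p under 0.05, 1 of Bach2, Cd72 and Lyn passed (Lyn), and the share of all rows at that cut was not computed. Lyn also passed by DESeq2, at 0.60 and an adjusted p of 0.0205, but not by limma voom, at 0.58 and an adjusted p of 0.0722. Its adjusted p ran between 6.35e-06 and 0.377 over 16 alternatives. Without WT 4 and WT 5 and without the covariate, the log2 fold changes of Pax5, Bach2 and Cd72 were -0.51, -0.50 and -0.56, and that of Lyn was 0.29, with none past the threshold.

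Whether the 4 genes vary together was asked over their log2(CPM + 1) values, for 6 pairs of genes. Since WT 4 and WT 5 form a cluster of their own at the low end, the correlations are given first among the other 8 libraries. Pax5 and Cd72 had r = 0.949 and rho = 0.905 (two-sided exact permutation tests, p = 0.00238 and 0.00456, adjusted over the 6 pairs to 0.0114 and 0.0274). Pax5 and Bach2 had r = 0.912 and rho = 0.857 (exact permutation tests, p = 0.00380 and 0.0107, adjusted to 0.0114 and 0.0321). Bach2 and Cd72 had r = 0.878 and rho = 0.762 (exact permutation tests, p = 0.00657 and 0.0368, adjusted to 0.0131 and 0.0735). The libraries richest in one of these 3 genes were therefore richest in the other two, with WT 2, WT 3 and KO 4 at the top.

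Correlations with Lyn did not pass among these 8 libraries. Its r was 0.228 with Pax5, -0.0349 with Bach2 and 0.253 with Cd72 (exact permutation tests, adjusted p = 0.696, 0.929 and 0.696), and its rho lay between -0.262 and 0.167. Over all 10 libraries its r was 0.830 with Pax5, 0.729 with Bach2 and 0.816 with Cd72, values that span the gap to WT 4 and WT 5 and rest on these libraries. Those over all 10 for the other pairs were 0.944 for Pax5 and Bach2, 0.984 for Pax5 and Cd72 and 0.961 for Bach2 and Cd72.

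Within the 6 libraries of the first table, r was 0.902 for Pax5 and Bach2, 0.981 for Pax5 and Cd72 and 0.903 for Bach2 and Cd72 (exact permutation tests, adjusted p = 0.0333 for each). With Lyn, r in the first table was -0.104 for Pax5, -0.452 for Bach2 and -0.0812 for Cd72. The second table has too few libraries for a correlation. After the mean of each genotype in each table was taken off, r was 0.898 for Pax5 and Cd72, 0.659 for Bach2 and Cd72 and 0.306 for Pax5 and Bach2 (exact permutation tests, adjusted p = 0.0694, 0.0833 and 0.507). On the same scale r was 0.720 for Pax5 and Lyn, 0.757 for Cd72 and Lyn and 0.446 for Bach2 and Lyn (exact permutation tests, adjusted p = 0.0694, 0.0694 and 0.392). None of the 6 pairs passed on that scale, and there Lyn was no farther from Pax5 and Cd72 than Bach2 was by r.

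**Figure D3:**
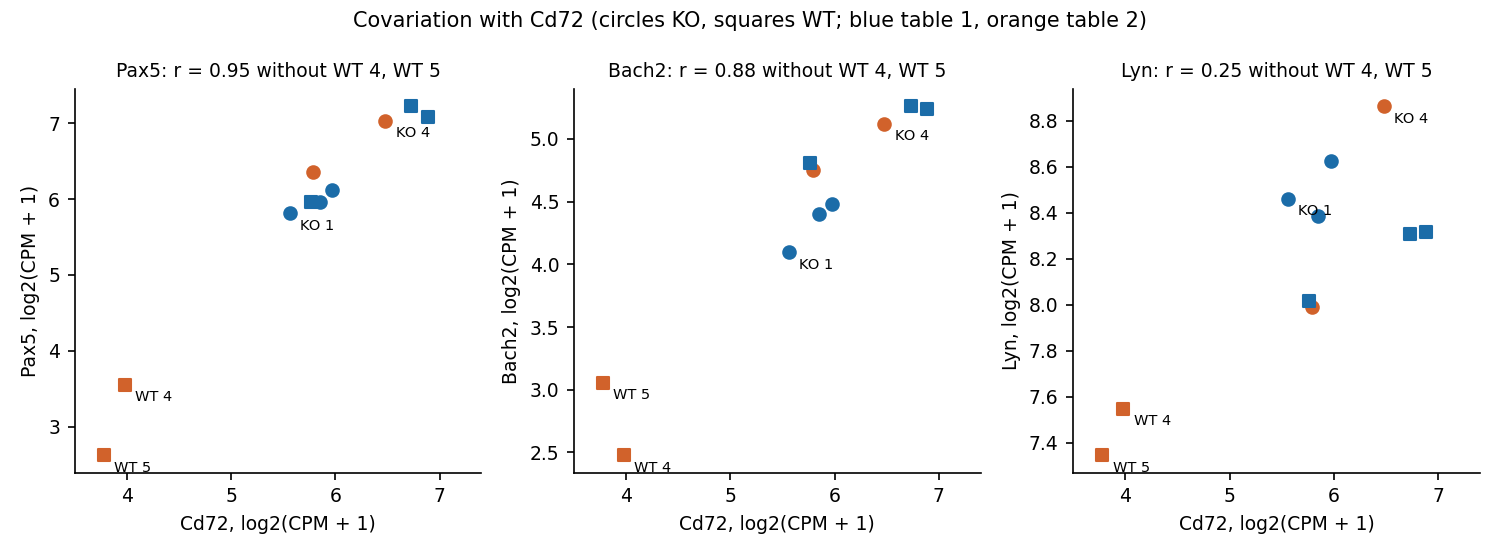
Pax5, Bach2 and Lyn (vertical axes) against Cd72 (horizontal axes), all as log2(CPM + 1), with 1 point per library, circles for KO, squares for WT, blue for the first table and orange for the second. Pax5 and Bach2 climb with Cd72 also among the 8 libraries other than WT 4 and WT 5 (r = 0.949 and 0.878), and the correlation with Lyn (r = 0.253) did not pass.

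Proportions between the genes were read from their counts. The ratio of Pax5 to Cd72 counts lay between 1.09 and 1.49 in the 8 libraries, against 0.727 in WT 4 and 0.404 in WT 5. Bach2 over Cd72 lay between 0.314 and 0.508 in the 8 libraries, against 0.309 in WT 4 and 0.574 in WT 5. Lyn over Cd72 lay between 2.71 in WT 2 and 7.61 in KO 1, against 12.6 in WT 4 and 12.7 in WT 5. So where Pax5 and Cd72 were lowest, Lyn was lower too, but by less.

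Likeness to each gene was measured as Pearson r of log2(CPM + 1) over all 10 libraries, among 215 named protein-coding rows of the chromosome 4 stretch, and it also spans the gap to WT 4 and WT 5. Susd1 came first for Cd72 (r = 0.921), Pax5 (r = 0.880) and Bach2 (r = 0.863), at 17.6 to 31.8 CPM in KO libraries and 13.7 to 32.0 CPM in WT libraries. Ggh, an enzyme that trims folate polyglutamates, was among the 5 nearest to each of the same 3 genes, with r of 0.856 for Pax5, 0.829 for Bach2 and 0.835 for Cd72. Pnrc1, a nuclear receptor coactivator, was also among the 5 of all 3. The others were AI481877 and Ugcg for Pax5, Ttpa and Svep1 for Bach2, and Ttpa and Manea for Cd72. Those nearest to Lyn were Sdcbp (r = 0.841), Dnaic1, Pip4p2, Susd1 and Ptbp3 (r = 0.783). Among 8292 rows of the whole table, Cd72 ranked 16 in likeness to Pax5, Bach2 ranked 63 and Lyn ranked 212.

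Ggh had a pattern of its own in the WT libraries. It was named by its likeness over these same libraries, so its values are a description. It had 1113, 766 and 987 CPM in KO 1, KO 2 and KO 3, against 1853, 1794 and 1464 CPM in WT 1, WT 2 and WT 3. In the second table it had 648 and 1289 CPM in KO 4 and KO 5, against 318 and 192 CPM in WT 4 and WT 5. Like Bach2 it was lower in KO in the first table and higher in the second without overlap, but KO 4, high in Pax5, was the lowest KO library for Ggh.

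Markers of other cells were followed through lists of 34 further genes that lie where names can be used, of which 31 passed the filter on low counts. The first table called 1 of the 31 higher (Shb) and 1 lower (Npr2) by edgeR, against 6.06% of all rows, with 11 at an unadjusted p under 0.05. The second table called none by edgeR, against 0.856% of all rows, with 6 at an unadjusted p under 0.05. All libraries together called 2 lower (Galnt12 and Tox), against 5.63% of all rows, with 9 at an unadjusted p under 0.05. The difference between tables called 1 higher (Irf5), against 2.05% of all rows, with 10 at an unadjusted p under 0.05. These shares of all rows are for the adjusted p. No share of all rows at an unadjusted p was computed, here or in the paragraphs below. The 31 had a median log2 fold change of 0.01 (first table) and 0.12 (second table), beside -0.00 and 0.02 over all rows tested.

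Among T cell genes only Sit1, a lymphocyte adaptor, and Tox, a regulator of T cell development, could be read, and their sum was 52.6 to 67.4 CPM in KO libraries and 64.4 to 113 CPM in WT libraries. Sit1 had only 106 counts over all libraries, so its values are imprecise. It had 1.34 to 4.46 CPM in KO libraries and 0.806 to 4.82 CPM in WT libraries, and was lowest in WT 4 and WT 5. Its log2 difference between tables was 2.81 ± 0.79 (SE; edgeR adjusted p = 0.110). Tox was the opposite, with 48.1 to 63.0 CPM in KO libraries and 62.8 to 112 CPM in WT libraries, and was highest in WT 4. WT 4 and WT 5 were therefore not low in both T cell genes.

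Of the chemokines listed for lymphoid tissue, Ccl19 and the Ccl21 copies draw T cells and dendritic cells into T cell zones, and Ccl27a is known as a chemokine of skin epithelium. Ccl19 had 40 counts, Ccl21a 111 and Ccl21b 10 over all libraries. Their copies are near-identical, so the split among the Ccl21 rows is uncertain. Ccl21a reached 16.7 CPM in KO 2 and 6.41 CPM in KO 3 and was below 1 CPM in each other library. Ccl19 was highest in KO 1, at 4.22 CPM, and at 0 in WT 4 and WT 5. Neither was high in WT 2, WT 3 and KO 4 together, the libraries with the most Pax5. Ccl27a, of 761 counts, was the one chemokine tested and was called in no comparison by edgeR (1 comparison, the first table, at an unadjusted p under 0.05). The list summed to 18.5 to 30.5 CPM in KO libraries and 19.5 to 29.8 CPM in WT libraries, and most of that sum was Ccl27a. How much follicle each piece of colon held was not tested.

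Lyn is also made in myeloid cells, and 3 genes listed as myeloid could be read. Irf5, a transcription factor of macrophages and B cells, had 50.4, 69.8 and 70.3 CPM in KO 1, KO 2 and KO 3, against 40.9, 75.6 and 80.0 CPM in WT 1, WT 2 and WT 3. Its second-table levels were 109.6 and 57.2 CPM in KO 4 and KO 5, against 22.6 and 19.5 CPM in WT 4 and WT 5. The log2 fold change of Irf5 was -0.01 (first table) and 1.99 (second table), and the difference of 2.00 ± 0.45 passed (SE; edgeR adjusted p = 0.0479). Irf5 lies on chromosome 6, in a shorter stretch where only 8 genes of general use support the names. With Abca1 and Ripk2 the list summed to 213 to 371 CPM in KO libraries and 180 to 299 CPM in WT libraries. The sum was highest in KO 4, where Lyn was highest too. KO 4 was also highest for the sums of plasma cell secretion, proliferation, and NF-kB and antigen receptor signalling given below. Ripk2 is counted in that last list as well, and Irf5 also acts in B cells. The myeloid sum is therefore no measure of myeloid cells alone. The part of the myeloid genes in the Lyn values was not tested.

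The 3 genes of plasma cell secretion (Erp44, Sec61b and Creb3) summed to 1114 to 1394 CPM in KO libraries and 1150 to 1387 CPM in WT libraries. None was called by edgeR in any comparison, nor had any an unadjusted p under 0.05. Sec61b also belongs to the genes that nearly every cell uses. The sum is therefore no measure of plasma cells alone, and their share was not tested. None of the 7 proliferation genes was called by edgeR either, with 4 at an unadjusted p under 0.05 over all libraries, and they summed to 604 to 944 CPM in KO libraries and 524 to 692 CPM in WT libraries. The 3 genes of NF-kB and antigen receptor signalling summed to 476 to 574 CPM in KO libraries and 428 to 494 CPM in WT libraries, and Shb, an adaptor protein, was the one called, at 0.62 ± 0.12 in the first table (SE; edgeR adjusted p = 0.0187). The 5 epithelial genes summed to 7626 to 10534 CPM in KO libraries and 8166 to 11311 CPM in WT libraries. The 8 genes of stroma and muscle summed to 2396 to 4029 CPM in KO libraries and 2857 to 4143 CPM in WT libraries. For the sums of these 2 lists, WT 4 and WT 5 lay within the range of the KO libraries.

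Single genes of stroma and muscle had changes of the same sign as Pax5, Bach2 and Cd72 in the first table, Tln1 apart. In the first table the 8 had a median log2 fold change of -0.57, beside -0.00 over all rows tested, and 6 had an unadjusted p under 0.05, all lower in KO. These were Col15a1, Col1a2, Npr2, Reck, Tpm2 and Cav1, with log2 fold changes of -0.66 to -0.51, of which Npr2 (a natriuretic peptide receptor) alone passed edgeR's adjusted threshold, at -0.66 ± 0.16 (SE; adjusted p = 0.0409). In the second table the median was 0.25, none was called by edgeR and none had an unadjusted p under 0.05. The difference between tables had a median of 0.71, beside 0.01 over all rows tested, with none called by edgeR and 4 at an unadjusted p under 0.05 (Cav1, Col1a2, Npr2 and Reck, at 0.94 to 1.40). The share of all rows at that unadjusted cut was not computed. The part of these stroma and muscle genes in the B cell gene values was not tested either.

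**Figure D4:**
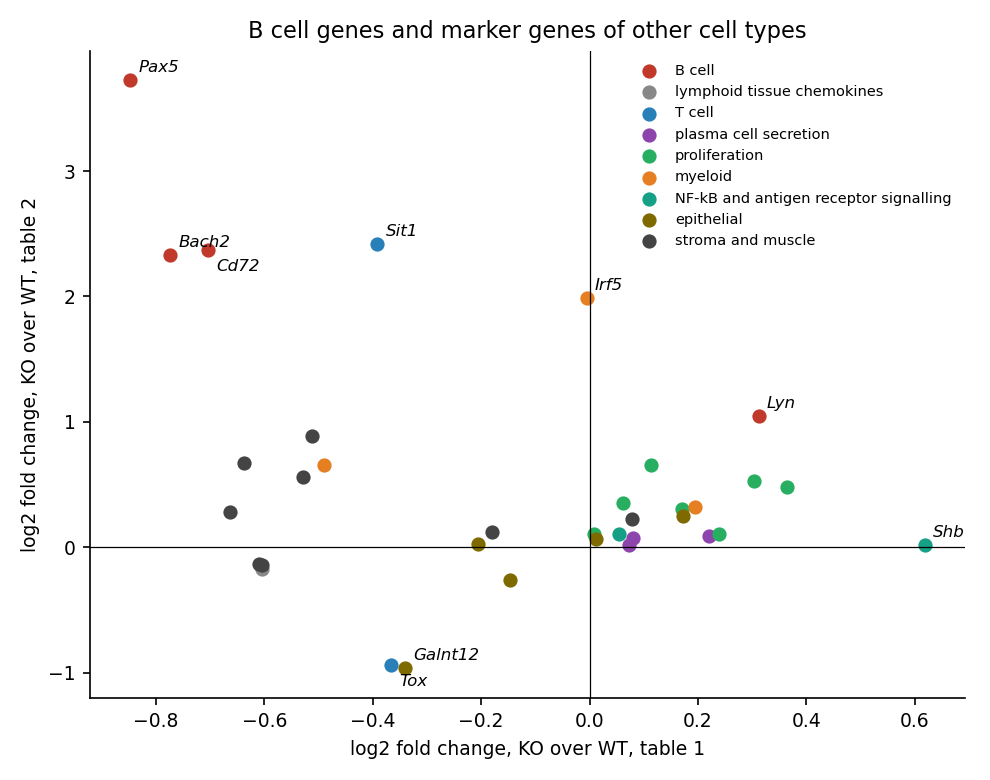
Log2 fold change, KO over WT, with the first table on the horizontal axis and the second on the vertical axis, for the 4 B cell genes and the 31 tested genes of the other lists, coloured by list. Pax5, Bach2, Cd72, Sit1 (106 counts over all libraries) and Irf5 lie highest on the vertical axis, at 1.99 or more. Lyn lies to the right of 0 at 1.05.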

How the data were processed

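RNA of DSS-treated colons was sequenced on a BGIseq500, per the labels, with single-end reads of 50 bases for the libraries of the second table. The values are raw counts per Ensembl gene, deposited by the authors and made with HISAT2 and featureCounts 2.0.1, per the submitters' processing notes, which name GRCh38 for the first table and mm10 for the second. CPM were computed from column totals. Over most of the genome the counts did not follow the row's gene name (GENCODE M21), so names were used only in 2 stretches, on chromosomes 4 and 6.

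KO was compared with WT by edgeR 4.0.16 (TMM, filterByExpr, quasi-likelihood test, Benjamini-Hochberg threshold 0.05; R 4.3.3) over all rows tested, within each table, over both with the table as covariate, and as the interaction. Alternatives were DESeq2 1.42.0, limma 3.58.1, no filter, other library sets and each library left out. Steps were checked on simulated data. The members and lists were chosen with earlier results of these data known. Named genes were the 4 B cell genes, the listed markers within the 2 stretches and the 5 rows most like each B cell gene with a mean of at least 5 CPM. The design text calls replicates biological. Each column label carries a short tag, and the labels used here do not say whether it names an animal. The p-values reflect only how these libraries vary, which may be technical. No 2 libraries matched within sampling noise (closest pair WT 2 and WT 3, chi-square 4.06 per row).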

Additional observations from a re-analysis of the deposited data

Results flagged for a closer look

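The KO effect differed between the tables, by the edgeR interaction test, for Bach2 (log2 difference 3.10, adjusted p = 0.00317), Cd72 (3.08, adjusted p = 0.00567) and Irf5 (2.00, adjusted p = 0.0479), each the second table minus the first. The Ggh difference of 2.73 is a description, since Ggh was named for its likeness to the B cell genes over these same libraries. The Pax5 difference of 4.58 was known from earlier results and is a description. Bach2 and Cd72 followed Pax5 across these libraries, so their differences are not separate from it. In all 5, WT 4 and WT 5 were the lowest libraries of the 10.

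By Dixon's criterion no single library stood apart from the other 4 of its genotype for any of the 4 B cell genes. That criterion sets the most extreme library against its nearest neighbour, so it does not test 2 low libraries that lie together. WT 4 and WT 5 were such a pair, with Pax5 at 10.7 and 5.15 CPM. WT 1, WT 2 and WT 3 had 61.2, 134 and 148 CPM. Over 100 groups of 5 libraries, from 50 genes, 10 held a library far from the others by Dixon's criterion, where chance gives about 1 in 20, or 5. In KO these were Ccl19 in KO 1 at 4.22 CPM, Nbn in KO 2 at 98.0 CPM, Klf4 in KO 4 at 1720 CPM, and in KO 5 Ccl27a at 25.7 CPM, Sec61b at 475.6 CPM, Reck at 35.9 CPM and Svep1 at 139.3 CPM. In WT these were Ccl19 in WT 3 at 3.09 CPM, Ccl21b in WT 4 at 2.15 CPM and Tgfbr1 in WT 1 at 156.4 CPM.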

How the results depend on the processing

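No paired analysis was possible because KO and WT share no replicate numbers in the labels. The cause of the changes below was not tested. Rows called numbered 548 over all libraries, 596 in the first table, 85 in the second and 200 for the difference between them. DESeq2 called 848 over all libraries, 439 in the second table and 344 for the difference. With no filter on low counts the numbers were 1260, 1322 in the first table, 2 in the second and 717 for the difference. Without WT 4 and WT 5, 78 rows were called over all libraries with no covariate, and 80 with it, a setting chosen after seeing the data.

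DESeq2 also made edgeR's calls for Bach2 in the first table, Cd72 in the second, and Bach2 and Cd72 for the difference. Newly past the threshold under DESeq2 were Lyn over all libraries (log2 fold change 0.60) and Cd72 in the first table (-0.70). Bach2 (2.34) and Lyn (1.05) newly passed in the second table. With no filter, Lyn (0.63) passed over all libraries and Cd72 (-0.66) in the first table, while Cd72 (2.36) no longer passed in the second. Pax5, its change being known from earlier results, is again only described. Its log2 fold change under DESeq2 was -0.84 (first table). With no filter it was 0.67 over all libraries, -0.81 (first table) and 3.71 (second table). Without WT 4 and WT 5, the log2 fold changes over all libraries turned negative, at -0.51 for Pax5, -0.50 for Bach2 and -0.56 for Cd72 with no covariate, and at -0.84, -0.76 and -0.69 with it. The setting with the covariate has no WT library left in the second table, so it repeats the comparison of the first table and is no separate check.

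Leaving out each library in turn gave 226 to 990 rows over all libraries, 158 to 456 in the first table, 0 (without KO 4, KO 5 or WT 4) to 5 (without WT 5) in the second and 57 to 484 for the difference. In fits left with 1 library in a group of the second table, that library was assumed to vary like the others. Over all libraries the log2 fold change ran between -0.012 and 1.08 for Pax5, -0.11 and 0.58 for Bach2, -0.018 and 0.68 for Cd72 and 0.38 and 0.66 for Lyn, the low ends of the first 3 without WT 4 or WT 5. In the first table these ranges were -1.13 to -0.62, -0.88 to -0.65, -0.95 to -0.50 and 0.25 to 0.36, and in the second 3.28 to 4.35, 2.03 to 2.69, 1.99 to 2.67 and 0.55 to 1.41. For the difference they were 4.13 to 5.18, 2.79 to 3.47, 2.69 to 3.35 and 0.24 to 1.08.

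Of the correlations, those with Lyn did not pass among the 8 libraries without WT 4 and WT 5, which are also the 2 farthest from the median of each first gene, at 0.228 with Pax5, -0.0349 with Bach2 and 0.253 with Cd72. In the first table alone they were -0.104, -0.452 and -0.0812. After taking off the mean of genotype and table, none of the 6 pairs passed, at 0.306 for Pax5 and Bach2, 0.898 for Pax5 and Cd72, 0.720 for Pax5 and Lyn, 0.659 for Bach2 and Cd72, 0.446 for Bach2 and Lyn and 0.757 for Cd72 and Lyn. With each library left out, r ran between 0.936 and 0.980 for Pax5 and Bach2, 0.9805 and 0.989 for Pax5 and Cd72, 0.956 and 0.970 for Bach2 and Cd72, 0.698 and 0.867 for Pax5 and Lyn, 0.619 and 0.771 for Bach2 and Lyn, and 0.692 and 0.853 for Cd72 and Lyn.

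At 17 to 40 counts, the Pax5 and Bach2 levels of WT 4 and WT 5 are the least precise among the 4 genes. Limits of depth and of gene naming apply to all 4 genes. Their counts are the authors' sums over exons, and names hold only as far as the stretch drawn here. The second table has only 2 KO and 2 WT libraries.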
